A study of Mus musculus with 12 samples.

Results

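Ceramide is the lipid from which the liver builds sphingomyelin and glycosphingolipids, and 10 mouse genes for its synthesis and breakdown were followed here in alcohol-fed and pair-fed livers. The set holds the subunits of serine palmitoyltransferase (Sptlc1, Sptlc2 and Sptlc3), 4 ceramide synthases (Cers2, Cers4, Cers5 and Cers6), the dihydroceramide desaturase Degs1, the neutral sphingomyelinase Smpd3 and the acid ceramidase Asah1. Members were found by matching these symbols to the Ensembl IDs of the count table through GENCODE release M21, which gave 10 of 54232 genes. The rule itself uses symbols and no measured value, but the genes were chosen with earlier results of these data known. Whole livers of 12 male C57BL6/J mice, labelled with an age of 8-week, were sequenced with 1 library per mouse. The 5 pair-fed mice (PF, labelled Control) received an isocaloric high-fat liquid diet for 8 weeks. The 7 alcohol-fed mice (AF, labelled Alcohol) received high-fat liquid diet with ethanol at up to 27 g/kg/day for the same time, and a binge of 5 g/kg each week. Per the study's methods, mice first ate solid Western diet or chow (which of these a given mouse had is not stated). The liquid diet went into the stomach while solid high-cholesterol high-fat food stayed freely available, and the last binge preceded death by a day. The AF values therefore describe long feeding and a recent binge together, in males of a single strain.

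De novo synthesis of ceramide takes place in the endoplasmic reticulum. Serine palmitoyltransferase joins serine with palmitoyl-CoA, a reductase follows, a ceramide synthase attaches a fatty acid, and the desaturase then turns dihydroceramide into ceramide. Each ceramide synthase prefers fatty acids of certain lengths, so that the mix of synthases bears on the mix of ceramides. Sphingomyelinases release ceramide from sphingomyelin, and ceramidases split ceramide into a fatty acid and sphingosine, the precursor of sphingosine 1-phosphate. In the liver, ceramides are known for their links with steatosis and insulin resistance.

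Total counts per library were 24129900 to 28594027 in PF and 25099033 to 30578639 in AF livers. Levels are given as CPM, the counts of a gene relative to the TMM-scaled total of its library, with SD over mice (n = 5 PF and n = 7 AF). TMM factors were 0.832 to 0.901 in PF and 0.880 to 1.37 in AF livers, with the highest value in AF1. Hepatocyte markers were abundant in every library, with a summed level of 111465 to 155472 CPM in PF and 53786 to 119866 CPM in AF livers, and 3 of 8 were lower in AF livers. Marker levels of other cells moved as well: 4 of 5 Kupffer cell markers, 4 of 7 recruited macrophage markers, 5 of 7 stellate cell and fibroblast markers, 4 of 5 bile duct markers and 1 of 5 sinusoidal endothelial markers were higher in AF livers, and 1 of 6 T and NK cell markers was lower. None of the 6 neutrophil, 4 B cell and 4 red blood cell markers passed the edgeR threshold. Over all genes tested, 22.0% were called higher and 17.8% lower in AF livers. The summed levels were 573 to 778 CPM in PF and 776 to 2376 CPM in AF livers for Kupffer cells, 71.6 to 296 and 142 to 1619 CPM for recruited macrophages, 182 to 471 and 392 to 926 CPM for stellate cells, and 49.5 to 244 and 70.3 to 1090 CPM for bile ducts. Spp1 is in both the recruited macrophage and the bile duct markers, so their counts and sums are not independent. No marker was at 0 in all libraries. The part of these cells in the results that follow was not tested, and in whole liver fewer cells of a type and less RNA per cell cannot be told apart.

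Of the 10 genes, 4 were higher in AF livers, none was lower, 5 did not pass the threshold and 1 could not be tested. The genes called higher were Sptlc1, Sptlc2, Cers5 and Cers6, whose log2 fold changes ranged from 0.26 to 0.88. Calls were made by edgeR's quasi-likelihood test over 14168 genes, at a Benjamini-Hochberg adjusted p under 0.05. Among all genes tested it called 22.0% higher and 17.8% lower in AF livers, and of the 9 members tested it called 44.4% higher. The median log2 fold change was 0.26 over the members and 0.04 over all genes. Scaling by library totals in place of TMM moved the median over all genes to 0.40. This scaling called 7 members higher and 0 lower, adding Cers2, Degs1 and Asah1. Among all genes it called 6458 higher and 938 lower. The 9 fitted changes were all above 0, so no member was lower at an unadjusted p under 0.05 either, and DESeq2 and limma-voom likewise called 0 members lower. Between the groups 2 members (Sptlc1 and Cers6) did not overlap, with each AF liver above each PF liver, a pattern seen in 8.20% of the genes tested, while no member had every AF liver below every PF liver, as 9.49% of the genes tested did.

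**Figure D1:**
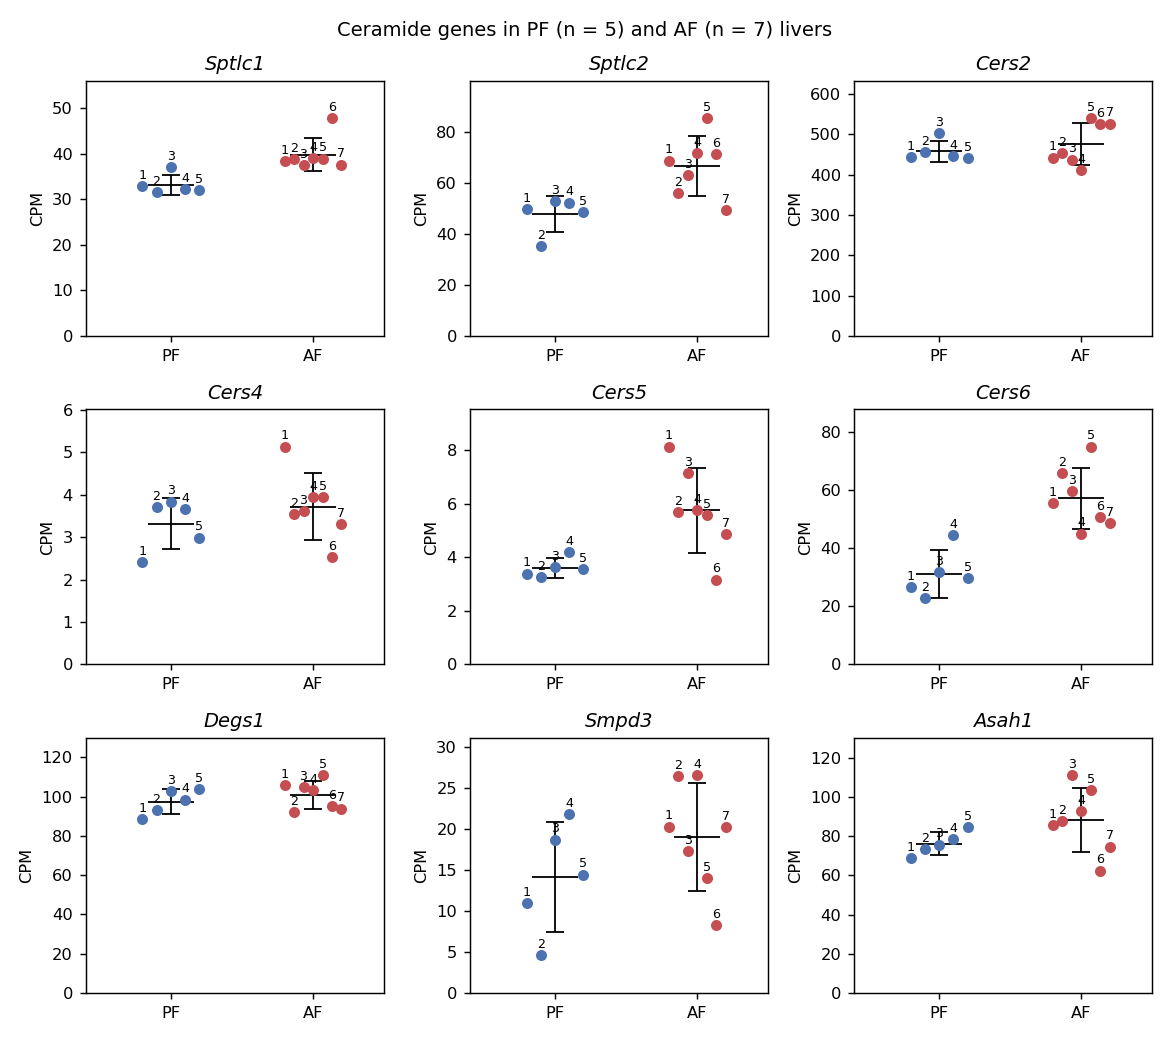
Level of each of the 9 detected ceramide genes in every liver (CPM on a linear axis from 0, small digits give the replicate number), for 5 PF livers in blue and 7 AF livers in red, with mean and SD as black lines. Sptlc1 and Cers6 show no overlap between the groups, AF6 has the lowest AF value of Cers5 at 3.16 CPM, and the groups of Cers2 and Degs1 overlap.

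The upstream sequences of members that were higher in AF livers and of the undetected Sptlc3 are shown first, to set the letters before an undetected gene beside those before genes that rose. Of the 10 members, 8 had an entry in the RefSeq promoter table (GRCm38.p6), and Smpd3 and Asah1 had none. The sequences below are the 250 bases before the start of Sptlc2 (chr12:87388356-87388605, minus strand), Cers6 (chr2:68861191-68861440, plus strand) and Sptlc3 (chr2:139493663-139493912, plus strand), read 5′ to 3′ on the strand of the gene. Capitals mark matches, on either strand, to the letters searched.
Sptlc2: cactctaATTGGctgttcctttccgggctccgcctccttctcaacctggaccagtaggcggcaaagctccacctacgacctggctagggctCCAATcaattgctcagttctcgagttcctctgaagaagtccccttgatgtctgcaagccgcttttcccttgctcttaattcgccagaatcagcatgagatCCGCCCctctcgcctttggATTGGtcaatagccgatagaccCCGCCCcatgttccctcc
Cers6: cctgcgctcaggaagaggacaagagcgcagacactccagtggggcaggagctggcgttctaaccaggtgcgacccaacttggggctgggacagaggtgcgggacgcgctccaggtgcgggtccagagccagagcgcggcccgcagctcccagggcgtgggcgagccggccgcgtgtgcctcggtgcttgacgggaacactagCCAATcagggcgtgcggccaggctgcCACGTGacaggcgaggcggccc
Sptlc3: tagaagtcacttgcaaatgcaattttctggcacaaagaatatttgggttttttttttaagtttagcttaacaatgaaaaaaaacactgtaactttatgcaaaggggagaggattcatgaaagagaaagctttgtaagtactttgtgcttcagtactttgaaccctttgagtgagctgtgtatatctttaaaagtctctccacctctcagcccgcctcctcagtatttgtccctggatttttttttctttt

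Matches were searched on both strands, and each string is given with its share among 32851 RefSeq promoter windows of this length. The GC box was searched as GGGCGG and stood in 32.7% of windows. The box named for its letters CCAAT stood in 33.8%, the TATA box, searched as TATAAA, in 12.4% and the E-box, searched as CACGTG, in 6.02%. The cAMP response element was searched as TGACGTCA and stood in 1.55%, the ATF4 composite element as TGATGNAA in 3.45%, and the forkhead site as TGTTTAC in 3.17%. None of these strings holds another. The Sptlc2 window held 2 GC boxes and 3 CCAAT boxes, at 55.2% G and C with 11 CpG dinucleotides. In the Cers6 window stood 1 CCAAT box and 1 E-box, at 70.4% G and C with 23 CpG. The Sptlc3 window held none of the letters searched, at 35.6% G and C with 1 CpG, beside medians of 52.4% and 6 CpG over all promoters. The windows of Sptlc1 (1 GC box, 1 CCAAT box) and Cers5 (2 GC boxes) overlap transcripts of GENCODE M21 and are not printed. An E-box also stood in 1 of 2 windows of Cers2 and in the window of Degs1. These windows lie within the GENCODE genes, like those of Sptlc1 and Cers5 in whole or part. In members not called, the same Cers2 window also held 2 GC boxes and 1 CCAAT box, and the Cers4 window 1 GC box. These matches describe letters and are no evidence of binding.

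Serine palmitoyltransferase, the enzyme of the first step, was measured through Sptlc1 and Sptlc2, since Sptlc3 had no reads. Sptlc1 encodes the subunit that every form of the enzyme contains (ENSMUSG00000021468, GRCm38 chr13:53332748-53377397, minus strand). Its levels in PF livers 1 to 5 were 32.9, 31.6, 37.1, 32.3 and 31.9 CPM, and AF livers had 37.4 CPM at the lowest, 38.9 at the median and 47.8 at the highest. Every AF liver lay above every PF liver, although the highest PF liver (PF3) and the lowest AF liver were close. Mean levels were 33.2 ± 2.25 CPM in the 5 PF livers and 39.7 ± 3.63 CPM in the 7 AF livers. By edgeR, the log2 fold change was 0.26 (SE 0.0793, adjusted p = 0.0194), or 1.2-fold. This call was lost without PF2 (adjusted p = 0.0545 by edgeR), without PF4 (adjusted p = 0.0507) and without PF5 (adjusted p = 0.0530), and with the replicate number as a block (log2 fold change 0.22, adjusted p = 0.0562).

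Sptlc2 encodes a catalytic subunit of the same enzyme (ENSMUSG00000021036, chr12:87305058-87388355, minus strand). PF livers 1 to 5 had 49.6, 35.3, 52.8, 52.3 and 48.5 CPM. In AF livers the lowest level was 49.2, the median 68.7 and the highest 85.3 CPM. AF7 fell within the range of the PF livers and the other 6 AF livers lay above it, while PF2 stood below the rest of its group. The mean was 47.7 ± 7.14 CPM in PF and 66.5 ± 11.8 CPM in AF livers. Sptlc2 rose 1.39-fold, or 0.48 on the log2 scale (SE 0.139, adjusted p = 0.0154 by edgeR). The call held in all 24 alternatives, with adjusted p from 0.00311 to 0.0423.

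Sptlc3 (ENSMUSG00000039092, chr2:139493913-139637674, plus strand), the other catalytic subunit, which is known for giving sphingoid bases of unusual chain length, had 0 reads in each of the 12 libraries, which together hold 328431206 counts. A count of 0 allows up to 3 counts (95% confidence), or 0.0778 to 0.148 CPM per library, so that expression was not detectable at this depth. In these libraries the reads on catalytic subunits thus came from Sptlc2. These limits cover counting error only.

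The enzyme works with regulatory partners, and several of these were lower in AF livers. Sptssa encodes a small subunit that raises the activity of the enzyme, and the Ormdl proteins bind the enzyme and restrain it when sphingolipids are abundant. Of 5 genes tested in this list, which also holds Kdsr, the reductase of the second step, none was higher in AF livers by edgeR and 3 were lower. The shares over all genes tested were 22.0% and 17.8%. Sptssa had 54.1 to 65.9 CPM in PF and 32.5 to 47.3 CPM in AF livers (log2 fold change -0.59, SE 0.0936, adjusted p = 5.32e-04). Ormdl1 had 30.7 to 37.8 CPM in PF and 17 to 24.8 CPM in AF livers (log2 fold change -0.65, SE 0.0963, adjusted p = 3.25e-04). For Ormdl2 the ranges were 46.9 to 56.7 CPM and 27.4 to 42.9 CPM (log2 fold change -0.56, SE 0.113, adjusted p = 0.00234). For all 3 genes each AF liver lay below each PF liver, as for 9.49% of all genes tested. Ormdl3 had a log2 fold change of 0.29 (adjusted p = 0.189) and Kdsr one of 0.22 (adjusted p = 0.315), and Sptssb had too few reads to be tested (2 reads in all). Exons of Ormdl2 overlap Dnajc14 on the opposite strand, and since the strand setting of the counting is not given in the sources used here, its value is uncertain. Exons of Sptssa and Ormdl1 overlap Mir1892 and Gm28778 on the same strand. Scaling by library totals in place of TMM, which moved the median over all genes to 0.40, left Sptssa at -0.22 (adjusted p = 0.172), Ormdl1 at -0.30 (adjusted p = 0.0538) and Ormdl2 at -0.22 (adjusted p = 0.0381), and with an offset for GC content and length Sptssa stood at -0.22 (adjusted p = 0.0955).

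**Figure D2:**
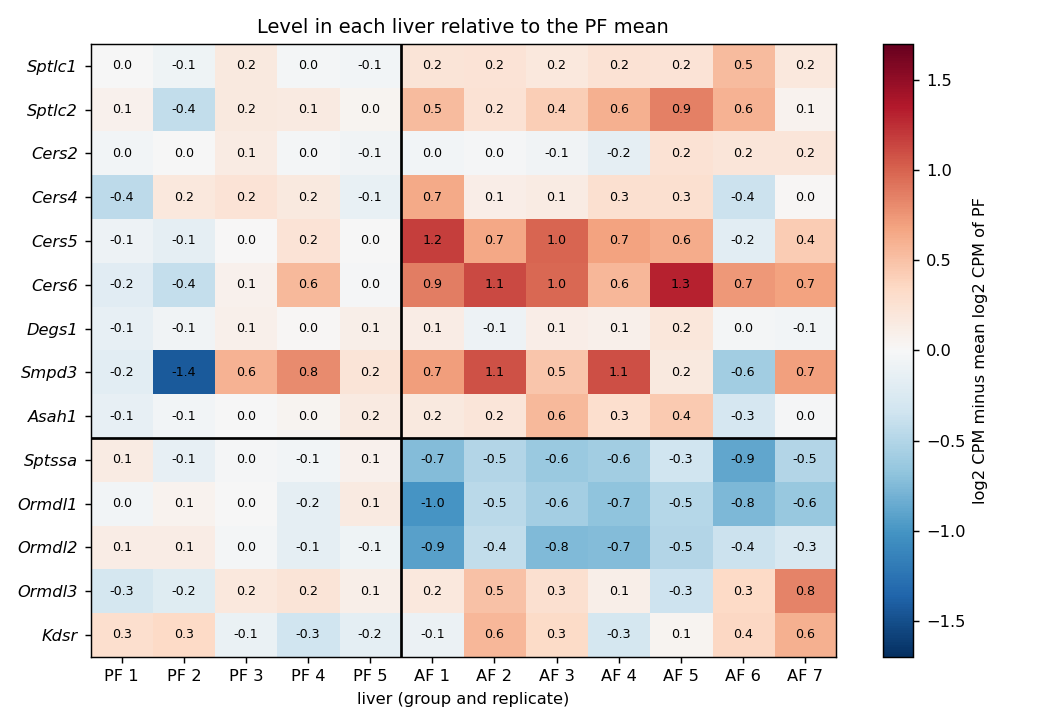
Level of the ceramide genes (above the line) and of the partners and second step of serine palmitoyltransferase (below it) in each liver, as log2 CPM minus the mean log2 CPM of PF livers, with the value printed in each cell. Sptlc1, Sptlc2 and Cers6 are at or above 0 in all 7 AF livers, and Sptssa, Ormdl1 and Ormdl2 are below 0 in all 7, under TMM scaling.

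Among the ceramide synthases, the synthases of long-chain ceramides were higher in AF livers and the main liver synthase was not called. Cers6 and Cers5 both prefer palmitoyl-CoA, Cers2 attaches very long chains and is the most abundant synthase of the liver, and Cers4 uses chains of intermediate length. Cers6 (ENSMUSG00000027035, chr2:68861441-69114282, plus strand) had 26.5, 22.8, 31.9, 44.5 and 29.8 CPM in PF livers 1 to 5, and 45.0, 55.5 and 75.1 CPM as the lowest, median and highest AF levels. All 7 AF livers lay above the PF livers, and the lowest of them, AF4, was next to the highest PF liver, PF4. Its mean was 31.1 ± 8.24 CPM in PF and 57.3 ± 10.5 CPM in AF livers. The change in Cers6, at 1.84-fold, was the largest among the members (log2 fold change 0.88, SE 0.168, adjusted p = 0.00167 by edgeR), and it was called in all 24 alternatives, with adjusted p from 2.09e-05 to 0.00698. Several predicted genes lie in introns of Cers6 on its own strand, and none overlaps its exons.

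Cers5 (ENSMUSG00000023021, chr15:99734881-99772885, minus strand) was a low gene, with 69 to 107 reads per PF library and 85 to 314 per AF library. The levels in PF livers 1 to 5 were 3.4, 3.25, 3.63, 4.21 and 3.57 CPM. AF livers had 3.16 CPM at the lowest (AF6), 5.70 at the median and 8.14 at the highest (AF1). AF6 lay below every PF liver and the other 6 AF livers above every PF liver. The mean was 3.61 ± 0.366 CPM in PF and 5.76 ± 1.59 CPM in AF livers, and edgeR gave a log2 fold change of 0.67 (SE 0.199, adjusted p = 0.0168), or 1.6-fold. In the 24 alternatives the call was kept with adjusted p from 0.00156 to 0.0434.

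Cers2 (ENSMUSG00000015714, chr3:95314791-95323599, plus strand) had 443, 455, 502, 446 and 440 CPM in PF livers 1 to 5, and 411, 452 and 540 CPM as the lowest, median and highest AF levels. AF5, AF6 and AF7 lay above the PF range and 2 AF livers below it, so the groups overlapped. The log2 fold change was 0.06 (SE 0.106, adjusted p = 0.684 by edgeR), and with library totals it was 0.41 (adjusted p = 0.00712). Exons of Setdb1 and of 6330562C20Rik overlap those of Cers2 on the opposite strand, which leaves its level uncertain for the reason given for Ormdl2. Cers4 (ENSMUSG00000008206, chr8:4493026-4531680, plus strand) ran from 2.41 to 3.83 CPM in PF and from 2.53 to 5.13 CPM in AF livers, on 49 to 93 and 68 to 198 reads per library. Its log2 fold change was 0.16 (SE 0.182, adjusted p = 0.494), and its exons overlap Gm36956 and the pseudogene Vmn2r-ps89 on the opposite strand. Cers1 and Cers3, together with the further desaturase Degs2 and the fatty acid hydroxylase Fa2h, were too low to be tested, with 5, 10, 127 and 16 reads in all libraries.

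The reads of the synthases were also set against each other within a library, a ratio that no scaling between libraries can change. There were 0.0682 ± 0.0188 reads of Cers6 per read of Cers2 in PF livers and 0.121 ± 0.0213 in AF livers, a difference in mean log2 ratio of 0.84. The ratio in PF livers 1 to 5 was 0.0599, 0.0502, 0.0635, 0.0998 and 0.0678, and in AF livers 1 to 7 it was 0.126, 0.146, 0.136, 0.110, 0.139, 0.0967 and 0.0927. AF1 to AF5 lay above all PF livers, while AF6 and AF7 stayed below PF4. For Cers5 to Cers2 the ratio was 0.00792 ± 0.000937 in PF and 0.0124 ± 0.00426 in AF livers, with 5 AF livers above the PF range and AF6, at 0.00603, below it. The ratio of Cers4 to Cers2 was 0.00724 ± 0.00115 and 0.00796 ± 0.00221. These ratios are descriptions without a test and rest on Cers2 counts that could include reads of the overlapping genes. AF6 and AF7 were also the AF livers with the highest summed hepatocyte markers (111657 and 119866 CPM, within the PF range), and the part of cell makeup in this was not tested.

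**Figure D3:**
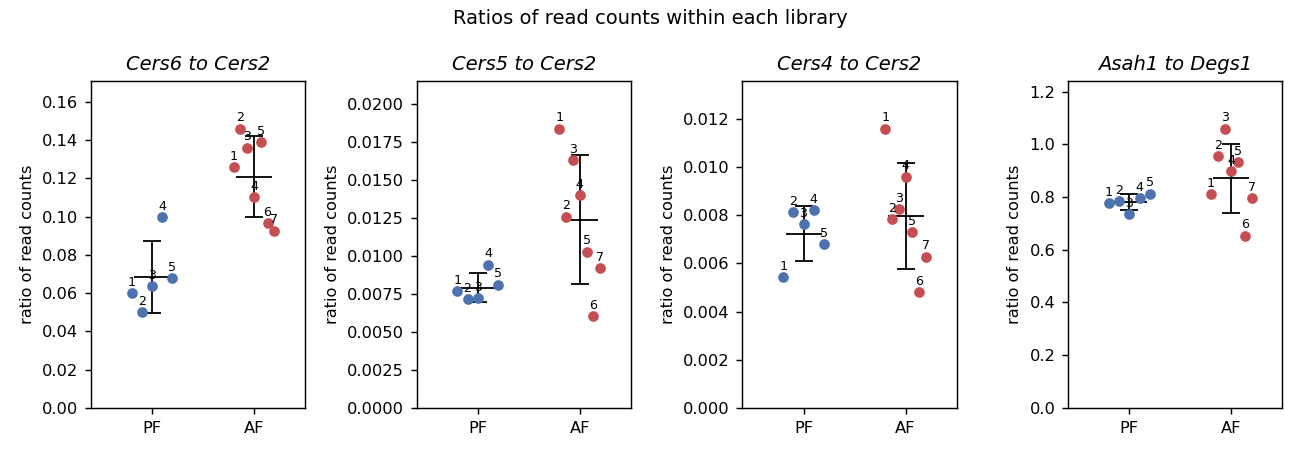
Ratio of read counts of gene pairs within each library (linear axes from 0), with 5 PF livers in blue, 7 AF livers in red and mean and SD as black lines. The ratio of Cers6 to Cers2 was above all PF livers in 5 of 7 AF livers, and the ratio of Asah1 to Degs1 in 4 of 7.

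Degs1, Smpd3 and Asah1, which act after the synthases, did not pass the threshold. Degs1 (ENSMUSG00000038633, chr1:182275772-182282804, minus strand) ran from 88.5 to 104 CPM in PF and from 92.0 to 111 CPM in AF livers. Its groups overlapped widely, and the log2 fold change was 0.05 (SE 0.0779, adjusted p = 0.634 by edgeR). With library totals it was 0.42 (adjusted p = 0.0242). Smpd3 (ENSMUSG00000031906, chr8:106252548-106337988, minus strand), which releases ceramide from sphingomyelin at neutral pH, was the most variable member in PF livers, at 11, 4.62, 18.7, 21.8 and 14.4 CPM. AF livers had 8.27, 20.2 and 26.6 CPM as lowest, median and highest values, with AF2 and AF4 above the PF range. The log2 fold change of Smpd3 was 0.43 with an SE of 0.342 (adjusted p = 0.332), so that a change of this size could not be told from the spread between mice. Exons of Prmt7 overlap Smpd3 on the opposite strand.

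Asah1 encodes the lysosomal ceramidase (ENSMUSG00000031591, chr8:41340197-41374773, minus strand). PF livers 1 to 5 had 68.7, 73.2, 75.7, 78.4 and 84.5 CPM, and AF livers had 62.4 CPM at the lowest, 87.7 at the median and 111 at the highest. AF1 to AF5 lay above the PF livers, AF7 within their range and AF6 below it. The log2 fold change was 0.21 (SE 0.129, adjusted p = 0.200 by edgeR). Without AF6 it was 0.28 (adjusted p = 0.0434), with the GC and length offset 0.37 (adjusted p = 0.0266), with the replicate block 0.33 (adjusted p = 0.0150) and with library totals 0.60 (adjusted p = 0.0197). The block also gives AF6 and AF7 no weight in the comparison, since no PF liver has their numbers. Within libraries there were 0.781 ± 0.0291 reads of Asah1 per read of Degs1 in PF and 0.872 ± 0.132 in AF livers. The AF livers spread from 0.654 in AF6 to 1.06 in AF3, on both sides of the PF range of 0.736 to 0.813.

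**Figure D4:**
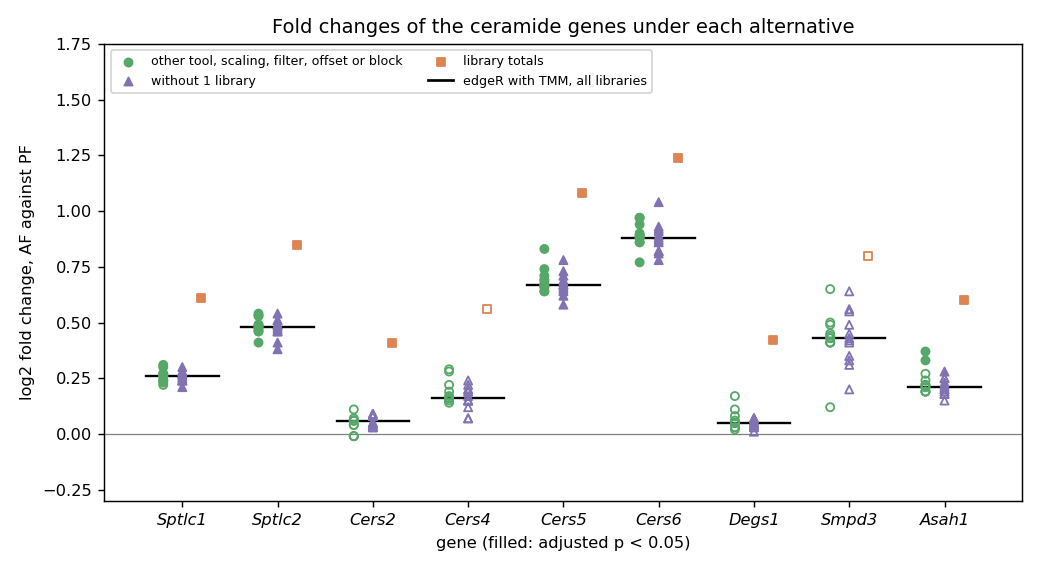
Log2 fold change (AF against PF) of the 9 tested ceramide genes with edgeR and TMM (black lines), under other tools, scalings, filters, offset or block (green circles), without each library in turn (purple triangles) and with library totals (orange squares), filled where the adjusted p is under 0.05. Sptlc2, Cers5 and Cers6 are filled throughout, Sptlc1 and Asah1 in some settings only, Cers2 and Degs1 with library totals only, and library totals lift all 9 genes.

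Levels were compared between members per kilobase of exons in GENCODE M21. In PF livers Cers2 was highest at 124 ± 7.04 CPM per kb, followed by Degs1 at 37.6 ± 2.51, Asah1 at 22.5 ± 1.74, Sptlc1 at 9.33 ± 0.633 and Sptlc2 at 5.88 ± 0.880 CPM per kb. Below them came Cers6 at 3.51 ± 0.928, Smpd3 at 2.70 ± 1.28, Cers5 at 1.02 ± 0.103 and Cers4 at 0.271 ± 0.0493 CPM per kb. The order by mean was the same in AF livers, from Cers2 at 130 ± 14.3 to Cers4 at 0.303 ± 0.0642 CPM per kb. Ranges over PF livers overlapped for the neighbours Sptlc2 and Cers6 (4.35 to 6.50 and 2.57 to 5.02), Cers6 and Smpd3 (0.883 to 4.16 for the latter), and Smpd3 and Cers5 (0.917 to 1.19 for the latter), and the other neighbours were apart. In AF livers the level of Cers6 per kb reached 6.45 ± 1.19 beside 8.19 ± 1.45 for Sptlc2, with overlapping ranges. A level per kb rests on the exons annotated, which ran from 2.591 kb for Degs1 to 12.264 kb for Cers4.

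The AF livers were not alike in these genes. AF5 had the highest AF level for 4 of 9 members and AF6 the lowest for 4. The number of members above the PF range was 8 in AF5, 7 in AF1 and in AF4, 6 in AF2 and in AF3, and 4 in AF6 and in AF7. Over all genes tested, the share above the PF range was lowest in AF6 at 28.4%, with 34.9% in AF5 and at most 37.0%, in AF1. AF6 also had 2 members below the PF range (Cers5 and Asah1), where 27.5% of all genes tested lay below it, and the highest Sptlc1 level of all livers. Without AF6 the members called higher were 5, with Asah1 as the addition. Over all genes, those called higher then went from 3116 to 3574 and those called lower from 2519 to 2923.

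Beyond the members, 65 other sphingolipid genes were followed in lists by role. Of 55 tested by edgeR, 19 were higher and 13 lower in AF livers, or 34.5% and 23.6%. Over all genes tested these shares were 22.0% and 17.8%. With library totals in place of TMM, 34 were higher and 6 lower. Under TMM the median log2 fold change was 0.21. Without the 5 genes under a mean of 10 reads per library in 1 group (Ugt8a, Gal3st1, Sphk1, Sgpp2 and Mfsd2b), a limit set after the data were seen, 15 of 50 were higher and 13 lower. Exons of Sgms1, Col4a3bp, Smpd2, Gba2, Galc, Hexa, Cerk, Sphk1, Sgpp2, S1pr3, S1pr5, Elovl1, Elovl3 and Elovl6 overlap another gene on the opposite strand. Their values are uncertain in the same way as that of Ormdl2. Exons of Glb1 overlap Tmppe on the same strand. In the sphingomyelin list, 1 gene of 7 tested was higher and 1 lower. Both were sphingomyelin synthases, which transfer the head group to ceramide. Sgms1 went from 15.7 ± 4.06 to 24.7 ± 2.46 CPM (log2 fold change 0.65, SE 0.146, adjusted p = 0.00405). Each AF liver lay above each PF liver, as for 8.20% of all genes tested. The lowest AF liver (AF7, 21.9 CPM) was close to the highest PF liver (PF4, 21.6 CPM). Sgms2 went from 55.7 ± 4.52 to 42.9 ± 3.94 CPM (log2 fold change -0.38, SE 0.0832, adjusted p = 0.00383), though it stood at 0.00 with library totals. The ceramide transfer protein gene Col4a3bp and the sphingomyelinases Smpd1, Smpd2 and Smpd4 did not pass, with log2 fold changes of -0.01, -0.10, -0.26 and 0.03.

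Of 8 glycosphingolipid synthesis genes, 4 were higher and 1 was lower (22.0% and 17.8% over all genes tested). Without the genes of few reads 2 of 6 were higher. Ugcg, the glucosylceramide synthase at the entry of the route, was the lower one, at 39.9 ± 2.48 CPM in PF and 32.1 ± 4.62 CPM in AF livers (log2 fold change -0.31, SE 0.0992, adjusted p = 0.0236), and library totals turned it to 0.06 (adjusted p = 0.749). The Ugcg call was also lost without PF2 (adjusted p = 0.0631). B4galt6, a lactosylceramide synthase, went from 5.46 ± 1.26 to 21.2 ± 11 CPM (log2 fold change 1.96, SE 0.412, adjusted p = 0.00285). Its level in AF6, 4.84 CPM, lay within the PF range of 3.29 to 6.41 CPM, and 6 AF livers lay above it. Gal3st1, which makes sulfatide, had 5 to 15 reads per PF library and 13 to 60 per AF library (log2 fold change 1.61, SE 0.416, adjusted p = 0.00878), and passed the filter on low counts mainly through AF livers. Ugt8a, which makes galactosylceramide, had 1 to 10 reads per PF library and 3 to 130 per AF library, and passed the filter on low counts mainly through AF livers. Its log2 fold change was 2.41 (SE 0.864, adjusted p = 0.0403), the call was lost without PF1, PF2, PF3 or PF4 (adjusted p from 0.0736 to 0.0902), and the gene dropped out of the test without AF1, AF3, AF4 or AF5 or with thinned counts.

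The list of lysosomal breakdown had 6 of 11 genes higher, with 1 lower and a median log2 fold change of 0.49. These are 54.5% and 9.09%, beside 22.0% and 17.8% of all genes tested. Psap, the precursor of the saposins that present sphingolipids to their hydrolases, went from 484 ± 33.1 to 980 ± 212 CPM (log2 fold change 1.02, SE 0.165, adjusted p = 6.19e-04). Hexa, which encodes a lysosomal enzyme of ganglioside breakdown, had a log2 fold change of 0.99 (SE 0.0879, adjusted p = 7.5e-06). For Psap and Hexa every AF liver lay above every PF liver, as for 8.20% of all genes tested. Gba2, a glucosylceramidase outside the lysosome, was lower (log2 fold change -0.92, SE 0.133, adjusted p = 2.93e-04). Across AF livers the summed recruited macrophage markers were highest in AF1 (1619 CPM) and lowest in AF6 (142 CPM). In AF1, AF5 and AF6, Gla had 17.6, 11.2 and 10.5 CPM, and Glb1 had 30.1, 28.2 and 21.1 CPM. Galc had 16.2, 12.9 and 12.8 CPM there, and Hexa 131, 142 and 168 CPM. The part of macrophages in these levels was not tested.

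Among the other ceramidases and ceramide kinase, 1 of 5 genes tested was higher and 1 lower, near the 22.0% and 17.8% of all genes tested. Cerk, which phosphorylates ceramide, went from 5.72 ± 2.27 to 16.5 ± 6.80 CPM (log2 fold change 1.53, SE 0.342, adjusted p = 0.00405). Its level in AF6, 5.77 CPM, lay within the PF range of 3.57 to 9.005 CPM, and 6 AF livers lay above it. The neutral ceramidase Asah2 went from 40.2 ± 5.22 to 28.8 ± 2.70 CPM (log2 fold change -0.48, SE 0.0958, adjusted p = 0.00213), which library totals reduced to -0.12 (adjusted p = 0.482). Acer2 and Acer3, alkaline ceramidases, had log2 fold changes of 0.07 and 0.21 and did not pass.

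In the sphingosine 1-phosphate list 5 of 13 genes tested were higher and 2 lower, and without the genes of few reads 3 of 10 were higher. The shares of the 13 were 38.5% and 15.4%, beside 22.0% and 17.8% of all genes tested. The phosphatase Sgpp2 and the kinase Sphk1 were among them but passed the filter on low counts only through the AF livers, and both dropped out of the test without AF1, AF3, AF4, AF5 or AF6. Sgpp2 had 2 to 5 reads per PF library and 4 to 177 per AF library (log2 fold change 3.41, SE 0.870, adjusted p = 0.00827, and 2.59 with limma-voom, where it was not called). Sphk1 had 0 to 7 reads per PF library and 6 to 78 per AF library (log2 fold change 2.75, SE 0.652, adjusted p = 0.00552, and 3.42 without PF5). The receptor S1pr3 went from 2.43 ± 0.495 to 5.53 ± 2.32 CPM (log2 fold change 1.19, SE 0.262, adjusted p = 0.00372), while the receptor S1pr5 had a log2 fold change of -1.16 (SE 0.289, adjusted p = 0.00717). The more abundant phosphatase Sgpp1 was lower, from 76.4 ± 5.80 to 53.4 ± 10.3 CPM (log2 fold change -0.52, SE 0.131, adjusted p = 0.00775), and stood at -0.18 (adjusted p = 0.232) with library totals. The lyase Sgpl1, which ends the pathway, had a log2 fold change of 0.24 (adjusted p = 0.262).

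The fatty acid elongases make the acyl chains that ceramide synthases use. Of 7 such genes 6 were tested by edgeR, and under TMM scaling 2 were higher and 4 lower. These are 33.3% and 66.7%, beside 22.0% and 17.8% of all genes tested. Elovl4, with 1 read in all libraries, was not tested. Elovl1, which extends chains to the lengths that Cers2 uses, went from 49.9 ± 5.50 to 64.3 ± 5.18 CPM (log2 fold change 0.37, SE 0.0897, adjusted p = 0.00661). Its AF livers all lay above the PF livers, as for 8.20% of all genes tested. Elovl7 went from 0.497 ± 0.189 CPM to between 1.12 and 45.5 CPM in AF livers (log2 fold change 4.69, SE 1.07, adjusted p = 0.00457), and limma-voom did not call it (log2 fold change 3.69, adjusted p = 0.0979). Without AF5, where it was highest, the log2 fold change was 3.91. Elovl7, Sgpp2 and Ugt8a were highest in AF1 and AF5, as was the summed level of bile duct markers (1090 and 745 CPM), and lowest in AF2, AF6 and AF7 (172, 87.1 and 70.3 CPM for the markers), and the part of those cells was not tested. Elovl3 had 86.0 to 321 CPM in PF livers and 0.259 to 33.9 CPM in AF livers, with a median of 1.41 CPM (log2 fold change -4.48, SE 1.05, adjusted p = 0.00527). The size of the Elovl3 change was not stable, at -5.93 without AF6, -6.97 with the replicate block (which gives AF6 and AF7 no weight), -6.50 with limma-voom and -7.27 with quality weights added. Elovl6, which extends palmitate, had a log2 fold change of -0.91 (SE 0.259, adjusted p = 0.0144), and Elovl5, which extends polyunsaturated chains, one of -0.89 (SE 0.222, adjusted p = 0.00715). With library totals Elovl5 stood at -0.53 (adjusted p = 0.0681).

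**Figure D5:**
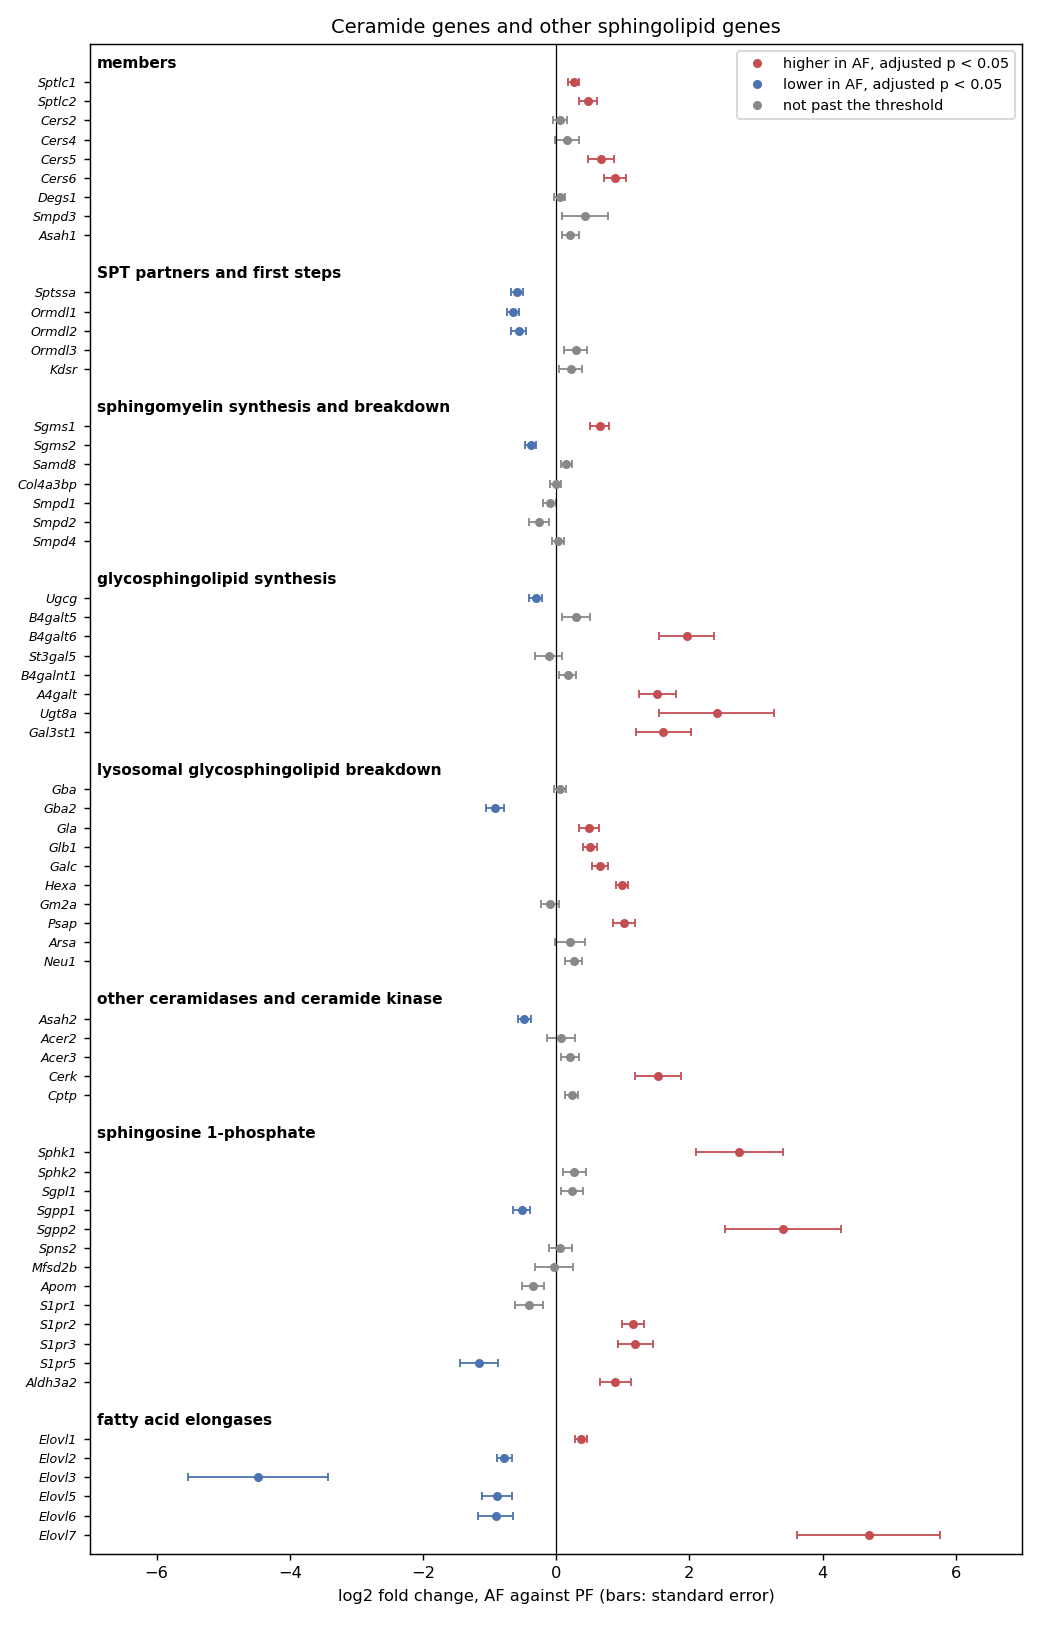
Log2 fold change (AF against PF, with SE as bars) of the tested ceramide genes and of the other sphingolipid genes by role, in red where higher and blue where lower in AF livers at an adjusted p under 0.05 (edgeR, TMM scaling), and grey otherwise, with 1 gene of the lysosomal list not drawn. The members lie between 0.05 and 0.88. Elovl7 at 4.69 (3.91 without AF5) and Elovl3 at -4.48 (-5.93 without AF6) lie farthest from 0.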

How the data were processed

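RNA of 12 mouse livers was sequenced by the authors after oligo(dT) enrichment with a stranded kit. Per the submitters' processing notes, FastQC 0.10.1, TopHat2 2.0.13 and HTSeq 0.10.0 were used with GRCm38. The authors deposited raw read counts per Ensembl gene, without normalization. The annotation and strand setting of the counting are not given in the sources used here. Columns were assigned by the group and replicate number in their names. Reads carry no molecular identifiers, so intervals and floors cover counting error only.

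Counts were scaled with TMM, filtered with filterByExpr (14168 genes left) and tested with edgeR 4.0.16 in R 4.3.3 (quasi-likelihood, AF against PF, no covariate). The SE was derived from the F statistic. Of the gene IDs, 54165 had a GENCODE M21 name. Among 31 pairs of libraries of 1 group, none repeated another (difference at least 21.1 times counting noise). Alternatives were DESeq2 1.42.0, limma 3.58.1 (voom, with or without quality weights), RLE, upper-quartile and library-total scaling, robust dispersion, keeping genes with 1 count anywhere or with mean counts of 10, thinning, a GC and length offset, the replicate block, and each library left out. Steps were tested on simulated data. The members, pathway lists and marker lists were chosen with earlier results of these data known. Named are all members and, per pathway list and direction, up to 3 called genes with the largest change. Other genes named were chosen after their values were seen. Of the lysosomal list, 1 gene is counted in the list but not reported here.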

Additional observations from a re-analysis of the deposited data

Results flagged for a closer look

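For 34 genes (the members tested and the other genes named by rule), each group of livers was checked for a mouse whose distance from the nearest other liver was large against the range of its group (Dixon's ratio at the 95% level). Of 68 groups, 10 held such a mouse, where chance gives about 1 in 20, or 3.4. Among the members, Sptlc1 stood out in PF3 (37.1 CPM) and in AF6 (47.8 CPM), Sptlc2 in PF2 (35.3 CPM, low) and Cers2 in PF3 (502 CPM). Among the other genes, Ugcg stood out in PF2 (44.1 CPM), Psap in PF3 (426 CPM, low), Sphk1 and S1pr3 in AF1 (2.02 and 10.5 CPM), and Elovl3 in PF5 (321 CPM) and AF6 (33.9 CPM). These values came from 5 libraries.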

How the results depend on the processing

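Across 24 alternatives, the members' calls stayed as they were in 206 of their comparisons, were gained in 6 and lost in 4, and those of the other named genes stayed in 565 and were lost in 19, in 1 of these with a change of sign. In 16 more, Ugt8a, Sphk1 or Sgpp2 failed the filter and had no value. Library totals in place of TMM moved the median log2 fold change from 0.04 to 0.40. All genes higher then numbered 6458 and lower 938, members higher 7 (adding Cers2, Degs1 and Asah1), and other sphingolipid genes 34 higher and 6 lower, with Ugcg at 0.06. Without 1 library, 3 to 5 members were higher and 0 lower, and 16 to 19 other sphingolipid genes were higher and 12 to 14 lower. Same-numbered PF and AF livers deviated from their group means with correlations from -0.0749 to 0.117, and 1 of 5 PF livers correlated best with its own number, so the numbers were not taken as pairs. With the replicate block, 4 members, 19 other sphingolipid genes and 3395 genes in all were higher, and 0, 15 and 2940 lower. No PF liver has the numbers of AF6 and AF7, so under the block these livers add nothing to the comparison. Sgpp2 (adjusted p = 0.0797), Elovl7 and Ugt8a (adjusted p = 0.184) were lost with limma-voom, and Ugt8a also with quality weights (adjusted p = 0.111). Ugcg was lost with the filter at 1 count (adjusted p = 0.0561) and the GC and length offset (adjusted p = 0.143). The cause of these shifts was not tested. Members with few reads were Cers4 (1216 in all libraries), Cers5 (1713) and Sptlc3 (0).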
